A study of Mus musculus with 7 samples.

Results

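The mevalonate pathway to squalene was followed in mouse pancreatic β-cells through 9 genes, given as Acat2, Hmgcs1, Mvk, Pmvk, Mvd, Idi1, Fdps, Ggps1 and Fdft1. They were chosen by gene symbol as enzymes from acetoacetyl-CoA, which Acat2 makes, to squalene, with Ggps1 on a side branch at farnesyl diphosphate. All 9 were found among the 24035 named genes of the count table. All 9 also passed the filter on low counts, which left 12354 genes for testing. The cells came from C57BL/6N mice (C57BL/6NCrl in the study's Methods) that were put on a high fat diet (HFD; 3 mice, replicates 2 to 4, 60% high-fat chow) or kept on chow diet (CD; 4 mice, replicates 1 to 4) for 2 days from 12 weeks of age. β-cells were sorted by FACS with a zinc dye (ZIGIR) and a fluorescent exendin-4 (Ex4-Cy5), polyA RNA was sequenced, and every library comes from its own mouse. The study's text names male mice for the feeding of 2 days, its Methods give both sexes, and the labels do not give the sex behind each library. The comparison asks what in the β-cell transcriptome goes with the raised insulin secretion described after short high fat feeding.

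The mevalonate pathway turns acetyl units into isoprenoids, the building blocks of cholesterol, of the side chain of ubiquinone, of dolichol and of the lipid anchors that hold small GTPases at membranes. Its genes are known targets of SREBP2, a membrane-bound transcription factor that is released when cells run short of sterols, so that their transcripts usually rise and fall together. In β-cells the pathway feeds the cholesterol of secretory granules and the prenyl groups of the Rab proteins used in exocytosis, and several of its steps consume NADPH or ATP.

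Total counts were 10559175 to 14391602 in the HFD libraries and 11145642 to 22557957 in the CD libraries. HFD replicate 3 stood apart: 8.55% of the 9443 genes that reached 50 counts in all of the other libraries had no count in it, against at most 0.0118% in any other library. The fold changes of the 9 genes are given with and without it. The insulin genes took 29.9% to 30.9% of counts on HFD and 27.7% to 29.0% on CD. The summed level of 9 β-cell markers was 322550 to 333440 CPM on HFD and 302000 to 314580 CPM on CD (CPM, counts per 1000000 counts of the library). The insulin genes are among these 9 and made up most of that sum. Of the 9 markers, 3 had a log2 fold change (HFD over CD) below 0. Summed CPM of the other marker lists on HFD and on CD spanned 380 to 521 and 393 to 663 (6 α-cell genes), 383 to 576 and 374 to 1103 (4 δ-cell genes), 90.8 to 127 and 83.8 to 269.9 (Ppy), 0.852 to 1852 and 51.1 to 2434 (6 acinar genes), 172 to 259 and 183 to 272 (4 ductal genes), 0 to 1.28 and 0 to 0.860 (4 endothelial genes, Kdr at 0 in every library) and 30.3 to 46.5 and 45.4 to 67.9 (4 of 5 macrophage genes, the fifth not in the table). The 6 genes of dividing cells, such as Mki67 and Top2a, summed to 145.7 to 159 CPM in the HFD libraries and 34.8 to 43.9 CPM in the CD libraries. The part of any of these differences in the results on the pathway was not tested.

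Upstream sequences were available for 7 of the 9 genes, matched by symbol in RefSeq on GRCm38.p6, the assembly of mm10. Fdps and Fdft1 were not among them. In the 250 bases before the start, the sterol regulatory element of SREBP, searched on both strands as TCACNCCAC, was present in 1.05% of 32851 promoters and in Hmgcs1 alone of the 7. The NF-Y box CCAAT, a partner site of SREBP, was present in 33.8% of promoters and in 6 of the 7 genes, all but Acat2. These shares are counted per promoter but the members per gene, and a further promoter of Pmvk had no CCAAT box. At least 2 such boxes were present in 10.1% of promoters and at least 4 in 0.84%. The Sp1 box GGGCGG was present in 32.7% of promoters and in 5 of the 7 genes. A match describes letters only, and its absence says nothing about binding. The 3 stretches are shown to set members with different counts side by side: Hmgcs1, the most abundant member, Mvk, the single member with a log2 fold change (HFD over CD) above 0, and Mvd, which acts in the same arm of the pathway as Mvk and had one below 0. The size of the Mvk value rests on HFD replicate 3, without which it was 0.07. Capitals mark the sterol regulatory element and the CCAAT boxes (ATTGG where the box lies on the other strand), and all run 5′ to 3′ along the gene.
Hmgcs1, chr13:119690101-119690350, plus strand: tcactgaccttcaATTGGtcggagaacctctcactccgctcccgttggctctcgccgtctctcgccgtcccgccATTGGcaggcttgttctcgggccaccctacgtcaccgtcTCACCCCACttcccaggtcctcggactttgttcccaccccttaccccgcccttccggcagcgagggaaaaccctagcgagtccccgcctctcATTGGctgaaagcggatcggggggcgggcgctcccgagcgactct
Mvk, chr5:114444061-114444268, plus strand: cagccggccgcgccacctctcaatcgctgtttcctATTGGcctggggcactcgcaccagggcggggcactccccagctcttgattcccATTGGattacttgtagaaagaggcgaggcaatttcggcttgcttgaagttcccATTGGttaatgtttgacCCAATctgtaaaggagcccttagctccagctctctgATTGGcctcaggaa
Mvd, chr8:122443423-122443672, minus strand: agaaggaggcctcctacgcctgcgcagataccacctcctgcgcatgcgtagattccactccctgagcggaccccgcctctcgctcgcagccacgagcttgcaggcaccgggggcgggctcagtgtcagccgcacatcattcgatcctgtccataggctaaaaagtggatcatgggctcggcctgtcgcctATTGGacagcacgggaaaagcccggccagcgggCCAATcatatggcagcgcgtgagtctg
Hmgcs1 had 1 sterol regulatory element, which began 137 bases before its start, and 3 CCAAT boxes. Mvk had 5 CCAAT boxes, at 14, 50, 67, 120 and 173 bases before its start, and Mvd had 2. The stretch of Mvk is 208 bases long because the bases farther out belong to Mmab, the neighbouring gene that is read from the same promoter in the other direction.

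Levels between genes can be compared only per length. On the scale of CPM per kilobase of the longest annotated transcript, the members spanned more than 2 orders of magnitude. Hmgcs1 led in both groups, with a mean of 157 CPM per kilobase on HFD and 234 on CD, and 99.1% of tested genes were below its higher group mean. Pmvk followed with 70.6 and 77.2, and its CD range (64.3 to 94.0) met neither that of Hmgcs1 above it (175.0 to 344) nor that of Fdft1 under it (39.8 to 53.9). Fdft1 averaged 28.4 on HFD and 46.6 on CD, Fdps 27.03 and 41.2, and Mvd 21.1 and 30.2. The CD ranges of Fdft1 and Fdps overlapped, as did those of Fdps and Mvd. Such ranges do not compare the genes within a library, and the order of neighbours was not tested. Acat2 (3.89 on HFD and 7.39 on CD), Ggps1 (5.15 and 7.19) and Mvk (10.2 and 6.00) formed a lower group with overlapping CD ranges. Idi1 was last, at 1.34 on HFD and 1.66 on CD, and 16.0% of tested genes were below it.

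**Figure D1:**
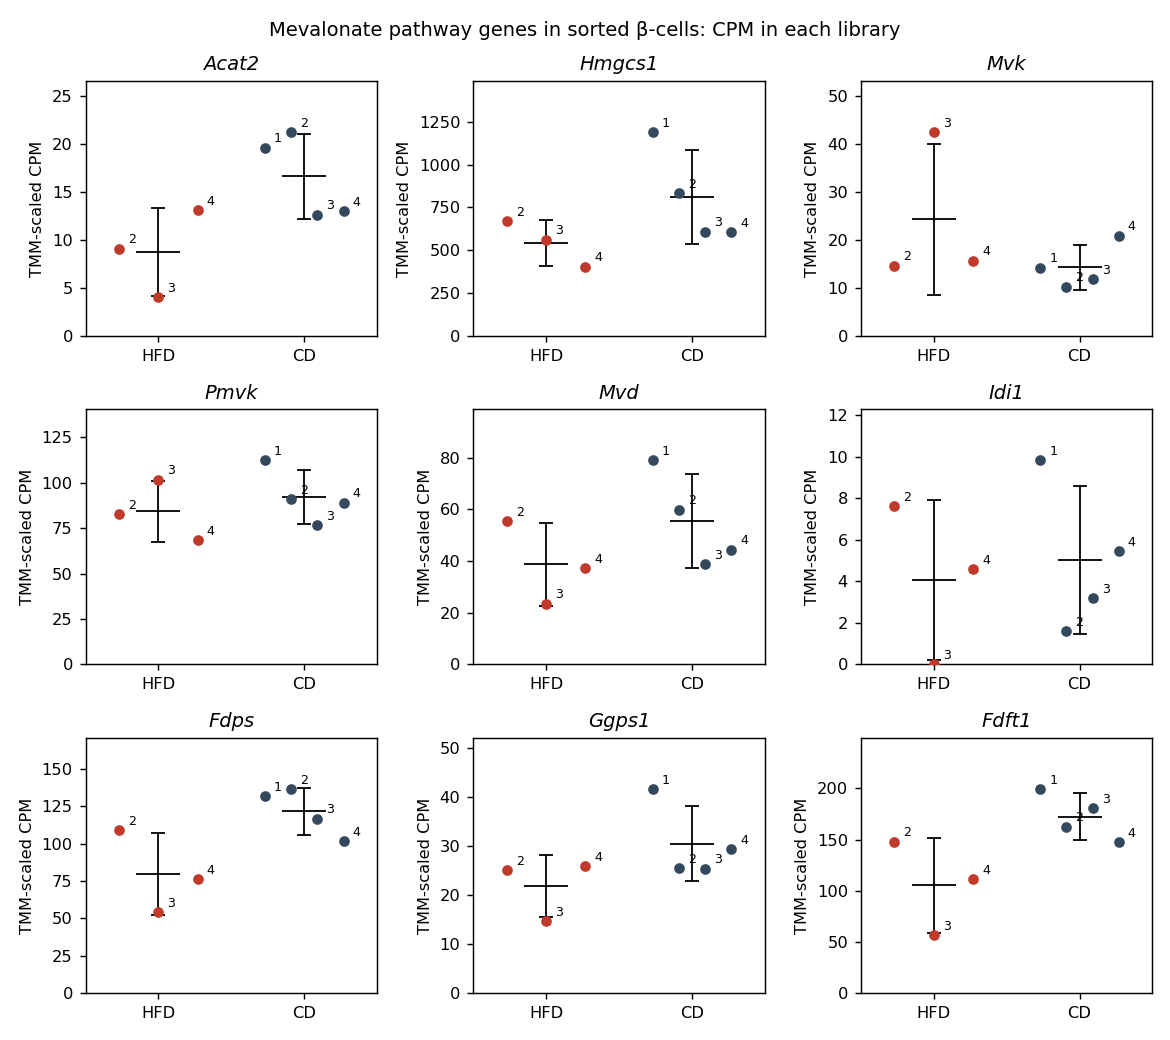
TMM-scaled CPM (vertical axis, from 0) of the 9 genes in the HFD libraries (red) and the CD libraries (dark), with replicate numbers beside the points, bars at the mean and error bars of 1 SD (n = 3 HFD and 4 CD mice). In each panel at least 1 HFD point lies within the range of the CD points, and the Mvk point of HFD replicate 3, at 42.5 CPM, stands above all others.

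Acat2 and Hmgcs1 open the pathway. Acat2 encodes the cytosolic thiolase that joins acetyl-CoA units to acetoacetyl-CoA, and lies on chromosome 17 of mm10 from 12942890 to 12960747. It had 9.08, 4.03 and 13.1 CPM in HFD replicates 2, 3 and 4, against 19.6, 21.2, 12.6 and 13.0 CPM in CD replicates 1 to 4. HFD replicates 2 and 3 were below every CD library, and HFD replicate 4 lay between the CD values, so the groups overlapped. The log2 fold change, HFD over CD, was −0.92 (standard error 0.49), with an adjusted p of 0.861 in the quasi-likelihood test of edgeR, which shrinks the spread of each gene towards that of all genes, and −0.59 without HFD replicate 3. These values rest on 44 to 282 counts per library. Acat3, its near copy in the mouse, had 1 count in all 7 libraries together.

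Hmgcs1 encodes the cytosolic HMG-CoA synthase, which adds another acetyl unit, and lies on chromosome 13 from 119690379 to 119708260. Its levels were 668, 561 and 404 CPM in the HFD libraries, against 1191, 835, 608 and 606 CPM in the CD libraries, with means of 544 ± 133 CPM on HFD and 809.9 ± 275.5 CPM on CD (SD, n = 3 and 4). HFD replicates 3 and 4 were below every CD library. CD replicate 1 was 1.74 times the mean of the other CD libraries, and HFD replicate 2 exceeded CD replicates 3 and 4. The difference was −0.57 on the log2 scale (standard error 0.25, adjusted p = 0.854 by edgeR, unadjusted p = 0.0496). Of the members, Hmgcs1 and Pmvk were those with a log2 fold change at least as far below 0 without HFD replicate 3 as with it (−0.61 for Hmgcs1), whereas without CD replicate 1 Hmgcs1 was at −0.33.

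The 3 enzymes of the ATP-consuming arm, which take mevalonate to isopentenyl diphosphate, did not share a direction. Mvk, mevalonate kinase on chromosome 5 from 114444269 to 114460591, had 14.6, 42.5 and 15.7 CPM on HFD, against 14.2, 10.3, 11.8 and 20.8 CPM on CD. The high value was that of HFD replicate 3 alone, while the other HFD libraries lay within the CD range. Its log2 fold change was 0.76 (standard error 0.45, adjusted p = 0.887 by edgeR) with that library and 0.07 without it. Mmab, which shares the promoter of Mvk, had 19.4 CPM in HFD replicate 3, against 20.1 and 20.8 CPM in the other HFD libraries and 17.8 to 38.1 CPM on CD, and so was not high in that library.

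Pmvk encodes phosphomevalonate kinase and lies on chromosome 3 from 89454541 to 89469013. Its levels were 82.7, 101.7 and 68.5 CPM on HFD and 112, 91.0, 76.7 and 89.0 CPM on CD. HFD replicate 4 was below every CD library and the other HFD libraries lay inside the CD range. Its log2 fold change of −0.13 had a standard error of 0.18 (adjusted p = 0.929 by edgeR), and was −0.30 without HFD replicate 3 and −0.02 without CD replicate 1. Mvd, the decarboxylase that yields isopentenyl diphosphate, lies on chromosome 8 from 122433601 to 122443422. It had 55.4, 23.4 and 37.2 CPM on HFD and 78.9, 59.9, 38.7 and 44.3 CPM on CD. HFD replicates 3 and 4 were below every CD library, replicate 4 narrowly so, and HFD replicate 2 was above CD replicates 3 and 4. The log2 fold change of Mvd was −0.52 (standard error 0.33, adjusted p = 0.888 by edgeR), and was −0.87 without HFD replicate 2, −0.27 without HFD replicate 3 and −0.30 without CD replicate 1. Within HFD replicate 3 the count ratio of Mvk to Mvd was 1.81, against 0.264 and 0.422 in the other HFD libraries and 0.171 to 0.470 on CD.

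Idi1 encodes the isomerase that makes dimethylallyl diphosphate, the starter unit of every prenyl chain, and lies on chromosome 13 from 8885501 to 8892451. Counts were 103, 0 and 66 in the HFD libraries and 117, 18, 71 and 77 in the CD libraries. The 0 of HFD replicate 3 allows a level of up to 0.284 CPM (3 counts of its total), which is below every other library, and the spread within CD alone was 1.61 to 9.82 CPM. No direction could be read from Idi1, with a difference of −0.30 on the log2 scale (standard error 1.28, adjusted p = 0.972 by edgeR). It stood at 0.27 without HFD replicate 3 and 0.25 without CD replicate 1. Idi2, its paralog, had no count in any library.

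Fdps and Ggps1 build the chains. Fdps, farnesyl diphosphate synthase, condenses 5-carbon units to the 15-carbon farnesyl diphosphate from which sterols branch off, and lies on chromosome 3 from 89093588 to 89101959. Its level was 109, 54.2 and 76.2 CPM on HFD and 132, 137, 117 and 102 CPM on CD, with means of 79.8 ± 27.6 and 122 ± 15.8 CPM (SD, n = 3 HFD and 4 CD mice). HFD replicates 3 and 4 were below every CD library, and HFD replicate 2 exceeded CD replicate 4 alone. The log2 fold change was −0.61 (standard error 0.23), with an unadjusted p of 0.0233 and an adjusted p of 0.817 by edgeR, and −0.41 without HFD replicate 3. Of its exon bases, 26.7% are shared with Gm43738, a protein-coding annotation on the same strand that has no row in the table. Ggps1 extends farnesyl to geranylgeranyl diphosphate, the anchor of Rab proteins, and lies on chromosome 13 from 14050659 to 14063488. It had 25.0, 14.6 and 26.0 CPM on HFD and 41.7, 25.5, 25.4 and 29.4 CPM on CD. HFD replicate 4 lay just above CD replicates 2 and 3, and the difference of −0.48 on the log2 scale (standard error 0.30, adjusted p = 0.888 by edgeR) was −0.27 without HFD replicate 3 and −0.29 without CD replicate 1.

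Fdft1 encodes squalene synthase, the first enzyme committed to sterols, which joins 2 farnesyl units with NADPH, and lies on chromosome 14 from 63145150 to 63179578. Its levels were 147.7, 56.3 and 111 CPM in the HFD libraries, against 199, 162, 181 and 147.2 CPM in the CD libraries, with means of 105.1 ± 46.0 and 172 ± 22.7 CPM (SD, n = 3 HFD and 4 CD mice). The groups met only where HFD replicate 2 stood at CD replicate 4. The log2 fold change was −0.71 (standard error 0.28), with an unadjusted p of 0.0290 and an adjusted p of 0.833 by edgeR, and −0.43 (standard error 0.17) without HFD replicate 3. The ratio of Fdft1 to Fdps counts within a library was 1.35, 1.04 and 1.46 on HFD and 1.51, 1.19, 1.55 and 1.45 on CD, and the groups overlapped. The 3′ end of Fdft1 overlaps that of Ctsb on the opposite strand by 774 exon bases (18.3% of its own), and whether reads there were counted by strand is not known. Ctsb, a lysosomal protease, was at −0.15 (standard error 0.10), with 251 to 299 CPM on HFD and 281 to 316 CPM on CD.

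**Figure D2:**
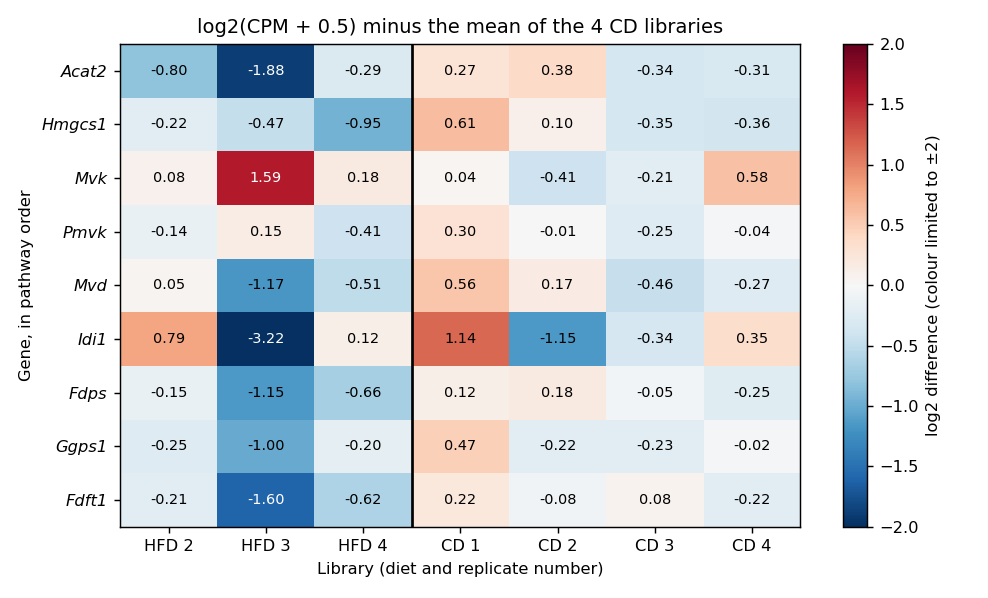
Difference of log2(CPM + 0.5) from the mean of the 4 CD libraries for each gene (rows, in pathway order) and library (columns, HFD left of the line, CD right of it), blue for below and red for above. The HFD replicate 3 column holds the lowest value, −3.22 for Idi1, and the highest, 1.59 for Mvk, and the CD replicate 1 column is at or above 0.04 throughout.

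Of the 9 genes, 8 had a log2 fold change below 0 and Mvk one above 0, while 57.9% of all tested genes were below 0. The median was −0.52 over the 9 genes and −0.08 over all tested genes. No gene of the table passed an adjusted p of 0.05 by edgeR (0%), and 353 higher and 360 lower genes had an unadjusted p under 0.05. DESeq2 called 137 genes (1.11%) and none of the 9, with its lowest adjusted p at 0.141 for Fdft1 and 0.157 for Fdps. At an unadjusted p under 0.05 by edgeR, 3 of the 9 genes were lower (Hmgcs1, Fdps and Fdft1) against 2.91% of all genes, and 0 were higher against 2.86%. This number was 0 without CD replicate 1, and 1 without CD replicate 2 (Fdft1) or HFD replicate 4 (Acat2, which is not among those 3). It was 4 without HFD replicate 2, where Mvd joined the 3. The criteria that the study's Methods give for a differentially expressed gene (p under 0.1 without adjustment, coefficient of variation under 1, a mean over 5 CPM per kilobase in 1 group, and 1 direction, read here as the same sign of the fitted change and of the difference in means) were met as lower by 4 of the 9 genes, Acat2, Hmgcs1, Fdps and Fdft1, and by 4.82% of all genes, and as higher by 0 of the 9 and 4.23% of all genes. Read this way, the criteria called 596 genes lower and 523 higher. That is far more than the study reported as differentially expressed, so its own list is not reproduced. Without HFD replicate 3 these 4 genes met the criteria again, against 4.86% of all genes as lower. The unadjusted p by edgeR stayed under 0.1 with any single library left out for Fdps (at most 0.063) and Fdft1 (at most 0.0718). For Acat2 it was 0.101 to 0.182 without HFD replicate 2 or without CD replicate 1, 2 or 4, and for Hmgcs1 0.171 without HFD replicate 4 and 0.145 without CD replicate 1. In none of the 9 did the groups stand fully apart, a pattern that 5.37% of genes showed as lower and 4.03% as higher on HFD. Without HFD replicate 3 none of the 9 stood apart either, against 8.29% of genes as lower and 9.73% as higher. Exact permutation tests of single genes over the 35 divisions of the libraries gave two-sided p-values of 0.114 (Fdps and Fdft1) to 0.743 (Idi1), where the smallest p possible is 0.0571. In bulk RNA, fewer cells that express a gene and less RNA per cell cannot be told apart.

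The pattern differed between the mice of a group. In HFD replicate 2, 2 of the 9 genes were below every CD library, against 22.8% of all genes, and 0 of 9 were above every CD library, against 22.6%. In HFD replicate 4 it was 5 of 9 below against 17.8% and 0 of 9 above against 18.4%. In HFD replicate 3 it was 7 of 9 below against 47.1%, with 1 of 9 above every CD library against 25.8%. The median deviation of the 9 genes from the CD mean, on the log2 scale, was −0.15, −1.15 and −0.41 in HFD replicates 2, 3 and 4, while that of all tested genes was 0.00, −0.28 and 0.01. On CD the same median was 0.30 in replicate 1, −0.01 in replicate 2, −0.25 in replicate 3 and −0.22 in replicate 4. CD replicate 1 was the highest CD library for 6 of the 9 genes, against 21.6% of all genes, and HFD replicate 2 was nearer to CD replicates 3 and 4 than to HFD replicate 3 in this median. The 9 genes together summed to 1081, 887 and 757 CPM (by total counts) in the HFD libraries and 1781, 1350, 1062 and 1069 in the CD libraries, and most of each sum was Hmgcs1.

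**Figure D3:**
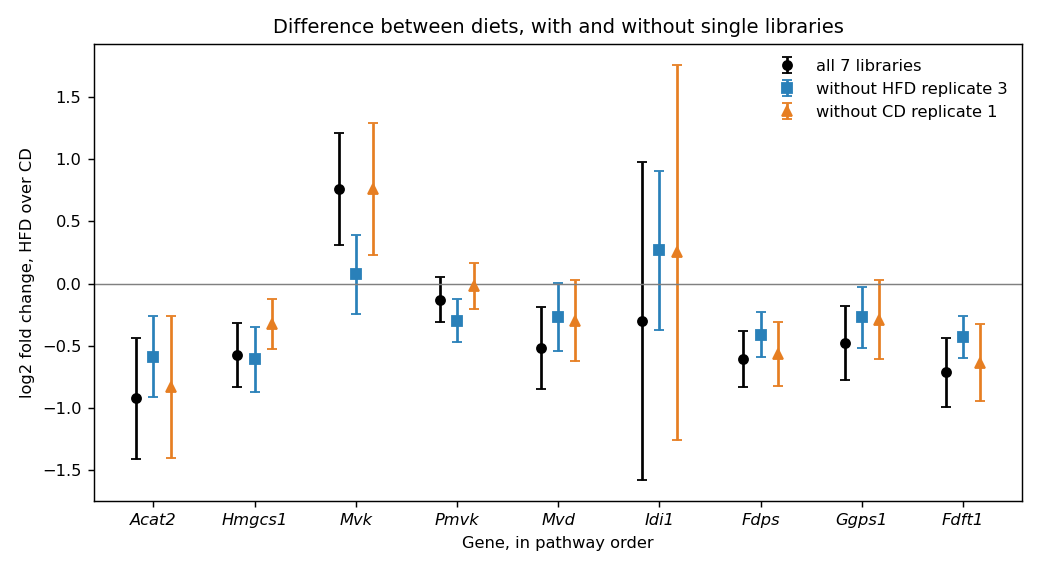
log2 fold change of HFD over CD (vertical axis, error bars of 1 standard error) for the 9 genes in pathway order, with all 7 libraries (black), without HFD replicate 3 (blue) and without CD replicate 1 (orange). Acat2, Hmgcs1, Fdps and Fdft1 stay below 0 by more than 1 standard error in all 3 fits, Mvk moves to 0.07 without HFD replicate 3, and Idi1 changes sign.

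Genes around the pathway were read from lists of symbols. After squalene, 9 of 11 enzymes had a log2 fold change below 0, with a median of −0.36, against 57.9% of all tested genes, and 3 were lower at an unadjusted p under 0.05 by edgeR, against 2.91% of all genes. Tm7sf2, a sterol reductase, had no count in HFD replicate 3. Without that library 9 of 11 were below 0, against 54.8% of all genes, with a median of −0.32. Lower at that p were then 5 of the 11, with Lss, Msmo1 and Hsd17b7 again among them, as were 488 of all 12784 genes tested. Msmo1, the methylsterol oxidase, had 308, 310.2 and 258 CPM on HFD and 502, 404, 424 and 362 CPM on CD, with no overlap, and its log2 fold change was −0.53 (standard error 0.13, adjusted p = 0.660 by edgeR and 0.00830 by DESeq2). Lss, lanosterol synthase, was at −0.36 (standard error 0.14), also without overlap, and Hsd17b7, a ketosteroid reductase of the pathway, at −0.74 (standard error 0.31). Of 7 genes that control sterol synthesis, 5 were below 0, a share near that of all genes, and 2 were lower at an unadjusted p under 0.05. Mbtps2, a protease that releases SREBP, was among those 5 and had no count in HFD replicate 3. Without that library 7 of 7 were below 0, against 54.8% of all genes, and 2 were lower at that p, against 488 of 12784. Srebf2, which encodes SREBP2, had 224, 197 and 242 CPM on HFD and 305, 302, 271 and 333 CPM on CD, with a difference of −0.45 on the log2 scale (standard error 0.12) and an adjusted p of 0.722 by edgeR and 0.00736 by DESeq2. Insig1, which holds SREBP in the ER when sterols are plentiful and is itself an SREBP target, had 319, 243 and 268 CPM on HFD and 458, 421, 391 and 326 CPM on CD, at −0.53 (standard error 0.14, adjusted p = 0.731 by edgeR and 0.0156 by DESeq2). In both, as in Msmo1 and Lss, all HFD libraries were below every CD library, a pattern that 5.37% of all tested genes showed. Without HFD replicate 3 Srebf2 was at −0.39 and Insig1 at −0.46. Srebf1 was at 0.00 (standard error 0.17), and at −0.17 without that library.

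Of 16 genes for protein prenylation, ubiquinone, heme A and dolichol synthesis, 14 were below 0 with a median of −0.25, against 57.9% of all tested genes. Chm, Pdss1 and Pdss2 had no count in HFD replicate 3, and without that library 9 of the 16 were below 0, with a median of −0.03, and 0 had an unadjusted p under 0.05 by edgeR. With all libraries, 0 were lower at an unadjusted p under 0.05, and Zmpste24, a protease that trims farnesylated proteins, was higher at that p (0.37, standard error 0.16, adjusted p = 0.854 by edgeR). Zmpste24 had 78.2, 113 and 80.8 CPM on HFD and 76.2, 67.0, 72.3 and 65.3 CPM on CD, and without HFD replicate 3, its highest library, it stood at 0.16 (standard error 0.15). Of 5 genes for isozymes and side steps, 3 were tested, of which 1 was below 0 with HFD replicate 3 and 2 without it, and none had an unadjusted p under 0.05. Acat1, the mitochondrial thiolase that carries out the reaction of Acat2 in ketone and isoleucine metabolism, had 88.6, 97.0 and 81.2 CPM on HFD and 76.2, 72.7, 76.7 and 76.9 CPM on CD. It stood at 0.23 (standard error 0.12, adjusted p = 0.863 by edgeR), opposite in sign to Acat2, and at 0.15 (standard error 0.14) without HFD replicate 3. Its HFD libraries were all above every CD library, as in 4.03% of all tested genes.

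**Figure D4:**
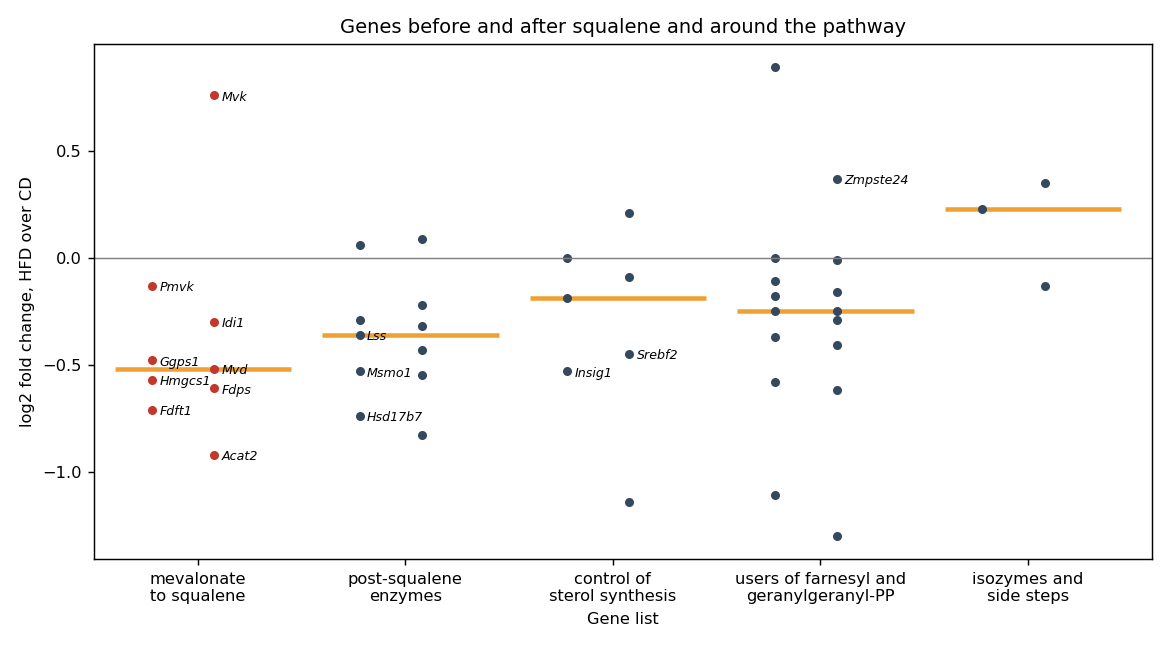
log2 fold change of HFD over CD (vertical axis) for the 9 genes (red) and 4 lists of genes around the pathway (dark), 1 point per tested gene, with orange lines at the medians and names for the 9 genes and for list genes at an unadjusted p under 0.05 by edgeR. The medians are −0.52 for the 9 genes, −0.36 after squalene, −0.19 for control of sterol synthesis, −0.25 for users of farnesyl and geranylgeranyl diphosphate and 0.23 for isozymes and side steps. Without HFD replicate 3 the medians are −0.30, −0.32, −0.34, −0.03 and −0.14 in the same order.

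Likeness to the 9 genes was ranked as the Pearson correlation of a gene's log2(CPM + 0.5) with their mean over the 7 libraries, among 9963 genes with a mean of at least 5 CPM. It is a description over libraries that share their depth and scaling, and the mean includes Idi1 with its 0 in HFD replicate 3. The top of a ranking of 9963 genes over so few libraries is high in part through the selection itself. Values without HFD replicate 3 use libraries that the ranking also used, so they are not a separate check. The 6 genes that followed it most closely were Mccc1, a carboxylase of leucine breakdown (0.988, and 0.967 without HFD replicate 3), Zfp87 (0.984 and 0.964), Sord, sorbitol dehydrogenase (0.982 and 0.946), C1qa, a complement gene of macrophages (0.979 and 0.954), Rdh11, a retinol dehydrogenase (0.971 and 0.958), and Sik1, a salt-inducible kinase (0.965 and 0.907). Among the 8 members that reached this level (Idi1 did not), Ggps1 (0.968), Mvd (0.949) and Fdft1 (0.913) lay closest to the mean of the 9 and Mvk farthest (−0.70). Each member is part of that mean, so some of the closeness is built in. Without HFD replicate 3, Pmvk was at 0.960, against 0.202 with it, and Mvk at 0.058.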

How the data were processed

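RNA of FACS-sorted β-cells from 3 HFD and 4 CD mice was sequenced after a stranded mRNA preparation. The authors deposited raw read counts per gene symbol on mm10, without normalization, and their processing notes name edgeR. How reads were aligned and counted, and whether strand was used, is not given in the sources used here, so reads of overlapping genes may be shared. Of 24062 rows, 27 held a date in place of a symbol and were left out (at most 0.155% of a library).

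HFD was tested against CD with edgeR 4.0.16 (filterByExpr, TMM, glmQLFit and glmQLFTest, Benjamini-Hochberg adjustment over 12354 genes) in R 4.3.3, without covariates. CPM values are TMM-scaled, and marker sums use total counts. Standard errors are the log2 fold change over the square root of F. The test was checked on simulated counts that had the same spread setting for every gene. They held no library with missing genes like HFD replicate 3, so the check does not cover that trait. Exact permutation tests used scipy 1.17.1. Alternatives were other tests (DESeq2 1.42.0, limma 3.58.1), scalings and filters, each library left out, and a replicate block. Quality weights in limma-voom, and the gene lists and study criteria without HFD replicate 3, were added after seeing the data. Coordinates and transcript lengths come from GENCODE M21 (99.3% of tested genes had a length), promoters from RefSeq. The limit allowed by a count of 0 (3 counts) covers counting error only.

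The members, the lists and the rule for named genes (all 9 members, genes of the lists at an unadjusted p under 0.05, and the 6 genes most alike) were chosen with earlier results of these data known. Acat1, Srebf1, Idi2, Acat3, genes of the lists at 0 in HFD replicate 3, and neighbouring genes were named outside the rule, after their values were seen. Promoter stretches shown were also picked after seeing the values. Some genes of the pathway are not reported here.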

Additional observations from a re-analysis of the deposited data

How the results depend on the processing

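No member passed an adjusted p of 0.05 under any alternative, and 7 of the 9 (Acat2, Hmgcs1, Pmvk, Mvd, Fdps, Ggps1 and Fdft1) stayed below 0 in all of them. Mvk was at −0.014 in limma-voom with quality weights (added once the data had been seen). Idi1 ran from −1.12 to 0.27 with single libraries left out, above 0 without CD replicate 1 or HFD replicate 3. The members' median log2 fold change ran from −0.87 (without HFD replicate 2) to −0.30 (without CD replicate 1 or HFD replicate 3). Genes past an adjusted p of 0.05 numbered 0 by edgeR's quasi-likelihood test (353 higher and 360 lower at an unadjusted p under 0.05), 23 by its likelihood ratio test, 10 by its exact test, 137 by DESeq2, 27 with quality weights, and 0 to 2 with single libraries left out (2 without HFD replicate 3). At an unadjusted p under 0.05, DESeq2 gave 669 lower and 650 higher genes, quality weights 565 and 548, and leaving out libraries 252 to 717 (without HFD replicate 4) and 220 to 402. Upper-quartile factors gave 283 lower and 420 higher. Whether the replicate numbers pair the mice is not known. Same-numbered HFD and CD libraries correlated at 0.0175 to 0.0721 in their deviations from group means, and differently numbered ones at −0.0436 to 0.0416. HFD replicates 2 and 4 correlated best with the CD library of their own number (0.0721 and 0.0556), and HFD replicate 3 with CD replicate 1 (0.0416). Correlations this small over so few libraries cannot decide the question. With the replicate block, 241 genes were lower and 134 higher at an unadjusted p under 0.05 and none passed adjustment, and the members' median was −0.36. The cause of these shifts was not tested. Counts per library were lowest for Idi1 (0 to 117), Acat2 (44 to 282) and Mvk (115 to 464).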
